A study of Mus musculus with 12 samples.

Results

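Gadd45a, Gadd45b, Gadd45g and Map3k4 are 4 of the 15002 genes in the expression tables, and all 4 passed the filter on low counts. They were taken by gene symbol. The set was chosen by a measured value, since Gadd45g had been seen to be lower with siR_Nostrill in the presence of IFN-γ. That contrast is therefore given here as a description with no test, for Gadd45g and for the other members, and so are the IFN-γ comparisons of Gadd45g, which use the same libraries. The cells were IEC4.1, an established line of mouse intestinal epithelial cells of newborn origin, wild type in all groups. They were transfected with siRNA duplexes, either of scrambled sequence (siR_Ctrl) or a pool of 3 aimed at the long noncoding RNA Nostrill (siR_Nostrill). Both kinds of cell were studied untreated and after IFN-γ, at 1 ng/ml and for 4 h by the methods of the study, where the labels name 24 h in all libraries. Each of the 4 groups had 3 RNA-seq libraries from a single cell line, described by the study as biological triplicates.

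Gadd45a, Gadd45b and Gadd45g encode small acidic proteins that are induced by DNA damage, growth arrest and inflammatory signals and have no known enzymatic activity of their own. They act by binding other proteins. The best described of these is MAP3K4 (also MEKK4 or MTK1), a kinase whose auto-inhibition is released by GADD45 binding and which then feeds MKK3/6 and MKK4/7 and, through them, the p38 and JNK kinases. GADD45 proteins also bind PCNA, p21 and the CDK1-cyclin B1 pair, and have been placed in active DNA demethylation together with TET, TDG and repair factors. In T cells Gadd45b and Gadd45g are known for their part in IFN-γ production, and in epithelium the family is known mainly as a stress response.

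The members lie on 4 different chromosomes of GRCm38.p6 by the RefSeq annotation. Gadd45a (gene ID 13197) is at chr6:67035096-67037407, Gadd45b (17873) at chr10:80930091-80932204, Gadd45g (23882) at chr13:51846675-51848475 and Map3k4 (26407) at chr17:12227621-12318796. Values are for whole genes, summed over their exons. From the coding sequences of GENCODE vM21, the encoded proteins have 165 residues for Gadd45a, 160 for Gadd45b and 159 for Gadd45g. Gadd45a and Gadd45g were identical at 59.0% of aligned residues, Gadd45b and Gadd45g at 56.4% and Gadd45a and Gadd45b at 56.2%. At the RNA level the paralogs are well separated, as the longest stretch shared exactly by any pair of their transcripts was 17 bases, between Gadd45a and Gadd45g.

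The 3 Gadd45 promoters are shown because these genes moved in the same direction in the contrast that led to their choice. Each sequence runs 5′ to 3′ from 250 bases before to 50 bases after the RefSeq start of the gene in GRCm38.p6. Capitals mark a CCAAT box (those letters), a TATA box (TATAAA) or an octamer (ATTTGCAT), read on either strand, and none of these matches overlapped another.
Gadd45a promoter, chr6:67037358-67037657, minus strand: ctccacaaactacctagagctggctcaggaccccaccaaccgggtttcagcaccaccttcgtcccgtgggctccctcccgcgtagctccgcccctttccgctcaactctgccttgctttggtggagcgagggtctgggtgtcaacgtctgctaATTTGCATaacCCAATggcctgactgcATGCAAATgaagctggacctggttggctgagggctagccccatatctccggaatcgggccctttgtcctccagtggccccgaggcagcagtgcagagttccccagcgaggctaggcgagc
Gadd45b promoter, chr10:80929841-80930140, plus strand: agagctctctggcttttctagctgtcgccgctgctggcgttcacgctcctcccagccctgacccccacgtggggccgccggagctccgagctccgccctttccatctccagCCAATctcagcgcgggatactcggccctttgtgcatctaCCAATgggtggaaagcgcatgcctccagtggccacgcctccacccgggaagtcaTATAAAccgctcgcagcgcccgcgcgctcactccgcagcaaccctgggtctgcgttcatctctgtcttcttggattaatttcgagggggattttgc
Gadd45g promoter, chr13:51846425-51846724, plus strand: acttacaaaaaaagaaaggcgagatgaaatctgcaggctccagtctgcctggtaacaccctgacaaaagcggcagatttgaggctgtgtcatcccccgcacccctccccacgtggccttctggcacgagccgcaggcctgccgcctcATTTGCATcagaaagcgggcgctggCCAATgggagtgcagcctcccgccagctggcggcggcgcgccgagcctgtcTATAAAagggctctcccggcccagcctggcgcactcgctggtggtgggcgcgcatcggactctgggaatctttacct

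The Gadd45b and Gadd45g promoters both held a TATA box, which began 46 and 27 bases before the start, and the Gadd45a promoter held none. TATAAA was present in 13.6% of the 32851 RefSeq promoters of the same length. All 3 held a CCAAT box (37.4% of promoters), which began 86 bases before the start in Gadd45a, 139 and 100 in Gadd45b and 78 in Gadd45g. The octamer, a letter string found in 1.74% of promoters, occurred at 2 places in Gadd45a and at 1 in Gadd45g, and was added to the search after these sequences had been seen. The Map3k4 promoter (chr17:12318611-12318910, minus strand) had none of these 3 motifs. A GC box (GGGCGG, 35.7% of promoters) occurred at 2 places in Map3k4, at 1 each in Gadd45a and Gadd45b and not in the Gadd45g window. Map3k4 held 38 CG dinucleotides, against 14 in Gadd45a, 24 in Gadd45b, 21 in Gadd45g and a median of 7 over all promoters. Neither the IFN-γ-activated sequence TTCNNNGAA (8.30% of promoters) nor the interferon-stimulated response element core GAAANNGAA (8.56%) was in any of the 4 windows, on either strand. A cyclic AMP response element (TGACGTCA, 1.79%) and an AP-1 site (TGANTCA, 7.81%) were likewise not in these letters.

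The siRNAs against Nostrill define the perturbed groups, and their guide strands, taken as the reverse complement of the sense strands listed by the study, are given with the seed (bases 2 to 8) in capitals.
Nostrill-1: aUUAAUGCuucuucccagg
Nostrill-2: aUUUGUGUguuccuggugg
Nostrill-3: aUUAGAACgacuuauaggc
No 3′UTR of the 4 members held a match to any of these seeds, in the transcript of each with the longest coding sequence in GENCODE vM21. A match to at least 1 of the 3 seeds was present in 24.5% of 20370 mouse 3′UTRs.

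Each library had between 17824306 and 19093204 reads counted on genes. At this depth the estimated count of a member in a library ran from 251 to 408 for Gadd45a, from 824 to 1805 for Gadd45b, from 410 to 947 for Gadd45g and from 1271 to 2009 for Map3k4. Nostrill was not analysed here, and the knockdown was therefore not checked. The labelled cell type was only weakly marked. Of 12 intestinal epithelial markers 7 were in the tables, and 1 of them (Krt19) had a mean of at least 1 FPKM, while Krt8, Krt18, Krt20, Vil1, Cdx1 and Cdx2 stayed at or below 0.28 FPKM in every library. Of 7 fibroblast or mesenchymal markers all 7 reached that level, led by Vim at 1536 to 2056 FPKM. Endothelial markers (2 of 4 in the tables) were at most 0.11 FPKM, and of the leukocyte markers Cd68 reached 2.07 FPKM while Ptprc stayed at or below 0.01. IFN-γ acted in both kinds of cell, as 7 of 7 tested IFN-γ check genes rose, with Igtp up by 7.79 ± 0.27 (log2 fold change ± SE) in siR_Ctrl cells and by 6.94 ± 0.26 in siR_Nostrill cells.

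Levels of the members can be compared per length, in FPKM, the deposited level scaled for length and mapped reads. Gadd45b was the most abundant with a mean of 59.4 FPKM over the 12 libraries, above 88.2% of genes, followed by Gadd45g at 35.6, Gadd45a at 18.5 and Map3k4 at 17.5. Gadd45b exceeded Gadd45g in 12 of 12 libraries, by 1.43 to 2.06 times, and Gadd45g exceeded both Gadd45a and Map3k4 in 12 of 12. Gadd45a and Map3k4 could not be ordered, as Gadd45a was the higher of the pair in 7 of 12 libraries.

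**Figure D1:**
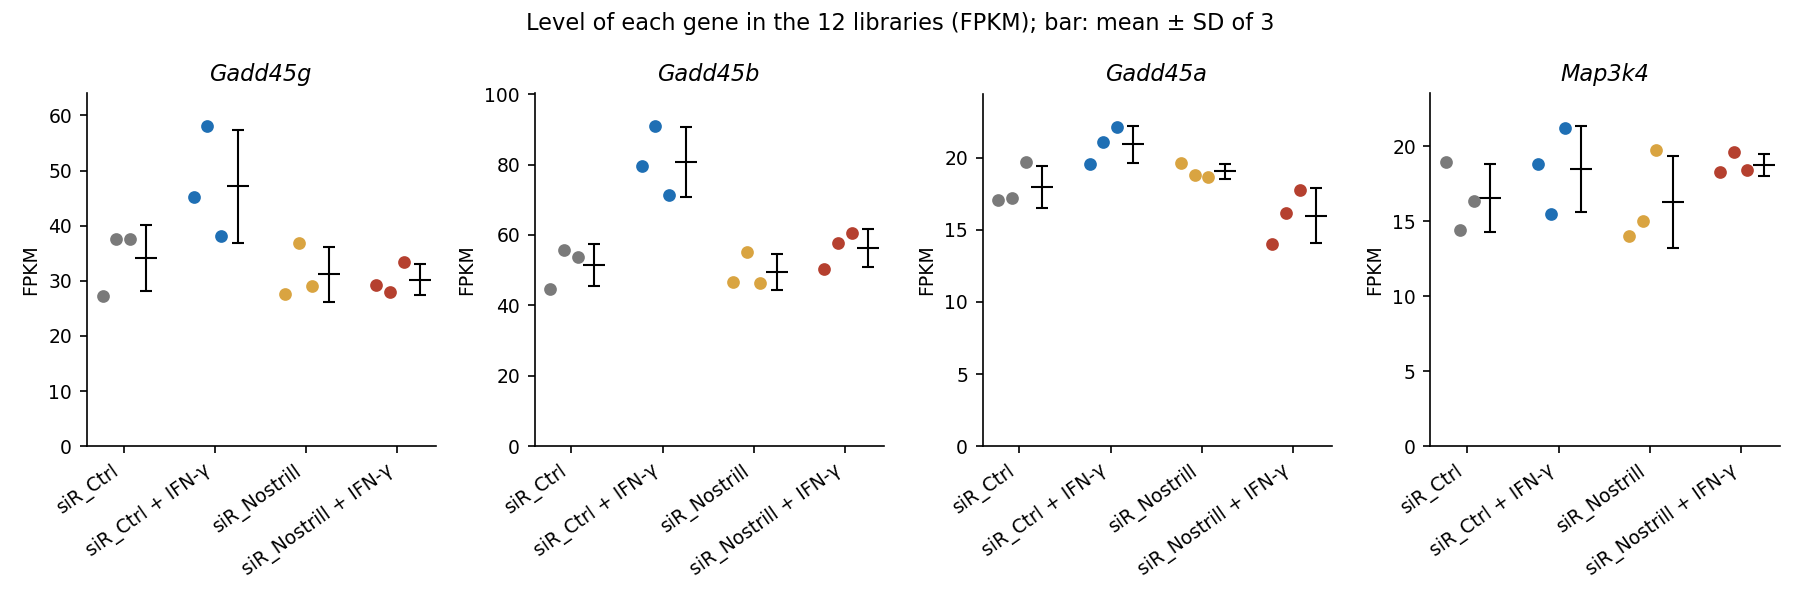
FPKM of Gadd45g, Gadd45b, Gadd45a and Map3k4 in each of the 12 libraries, with points for libraries and bars for the mean ± SD of 3. Gadd45b and Gadd45g were highest in the 3 libraries of siR_Ctrl + IFN-γ, at 71.4 to 91.1 and 38.04 to 58.2 FPKM, and Map3k4 stayed between 14.0 and 21.2 FPKM throughout.

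Gadd45g, the member that led to the choice, was measured at 27.2, 37.6 and 37.6 FPKM in siR_Ctrl cells and at 45.2, 58.2 and 38.04 FPKM in siR_Ctrl + IFN-γ. In siR_Nostrill cells it was at 27.6, 36.9 and 29.0 FPKM, and in siR_Nostrill + IFN-γ at 29.2, 28.02 and 33.4 FPKM. The 3 siR_Ctrl + IFN-γ libraries were above all 9 others, although their lowest value exceeded the highest siR_Ctrl value by little, and the remaining 3 groups overlapped one another. By edgeR the log2 fold change of siR_Nostrill + IFN-γ against siR_Ctrl + IFN-γ was -0.71 ± 0.22 (SE), 38.7% lower. The log2 fold change with IFN-γ was 0.54 ± 0.22 in siR_Ctrl cells and -0.067 ± 0.22 in siR_Nostrill cells. Replicate 2 of siR_Ctrl + IFN-γ, the highest library, weighed on these values, as without it the siRNA contrast was -0.46 and the IFN-γ change in siR_Ctrl cells 0.30. Over all libraries left out in turn they ran from -0.87 to -0.46 and from 0.30 to 0.71, and the IFN-γ change in siR_Nostrill cells from -0.17 to 0.084.

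Gadd45b, known as MyD118 and as a target of NF-κB and TGF-β signalling, was at 44.7, 55.9 and 53.9 FPKM in siR_Ctrl cells and at 79.5, 91.1 and 71.4 in siR_Ctrl + IFN-γ. In siR_Nostrill cells it was at 46.6, 55.3 and 46.2 FPKM and in siR_Nostrill + IFN-γ at 50.3, 57.8 and 60.6. The siR_Ctrl + IFN-γ libraries stood above all others with no overlap, and the other 3 groups overlapped. In the contrast used for the choice, siR_Nostrill + IFN-γ was 33.2% lower than siR_Ctrl + IFN-γ, a log2 fold change of -0.58 ± 0.16.

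Gadd45a, the member known as a p53 target, was at 17.1, 17.2 and 19.7 FPKM in siR_Ctrl cells, 19.6, 21.1 and 22.1 in siR_Ctrl + IFN-γ, 19.7, 18.8 and 18.6 in siR_Nostrill cells and 14.0, 16.2 and 17.8 in siR_Nostrill + IFN-γ. Its 3 siR_Nostrill + IFN-γ libraries were below all those of siR_Nostrill and of siR_Ctrl + IFN-γ. With IFN-γ, siR_Nostrill cells were 26.4% lower than siR_Ctrl cells, a log2 fold change of -0.44 ± 0.12.

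Map3k4, the kinase partner, was at 19.0, 14.4 and 16.4 FPKM in siR_Ctrl cells, 18.8, 15.5 and 21.2 in siR_Ctrl + IFN-γ, 14.0, 15.04 and 19.8 in siR_Nostrill cells and 18.3, 19.6 and 18.4 in siR_Nostrill + IFN-γ. The 4 groups overlapped, and with IFN-γ the log2 fold change of siR_Nostrill against siR_Ctrl was -0.039 ± 0.12. In that contrast the 3 Gadd45 genes were thus lower with no overlap of the groups, which 8.29% of the 11900 genes tested were in FPKM and 5.45% in TPM, and Map3k4 was not. The edgeR test called 0.429% of genes in it. These values were used for the choice and carry no test.

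**Figure D2:**
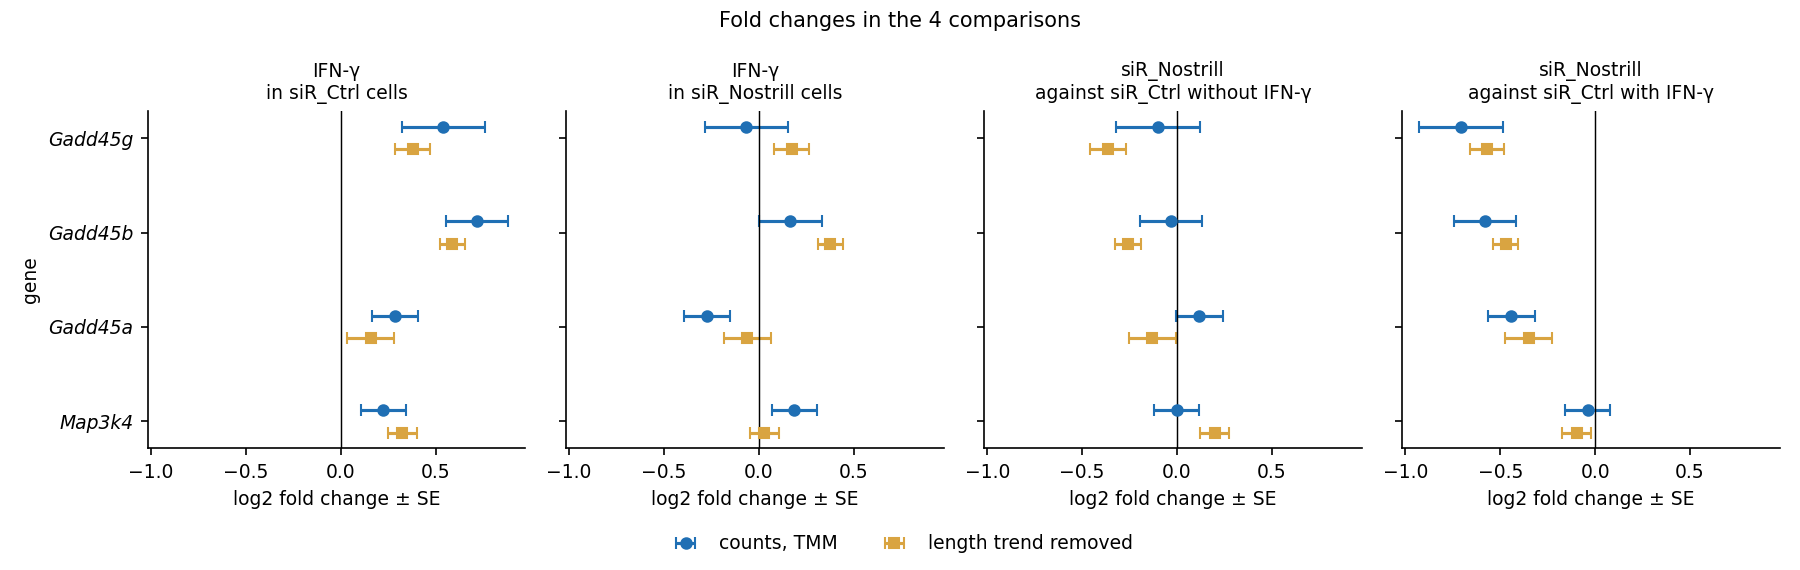
Log2 fold change ± SE of each member in the 4 comparisons, from edgeR on the counts (circles) and with the length trend of each library removed (squares). With IFN-γ the 3 Gadd45 genes lay between -0.71 and -0.35 in both fits, and the error bars of Gadd45b and Gadd45g were shorter once the trend was removed.

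The question of whether IFN-γ moves these genes in cells with control siRNA was tested for the 3 members that did not lead to the choice, although they share the IFN-γ libraries with it. Gadd45b rose, by 0.72 ± 0.16 on the log2 scale or 1.65-fold (95% confidence interval 1.28 to 2.11), and the other two did not pass. The quasi-likelihood test of edgeR, adjusted over all genes by Benjamini-Hochberg, gave an adjusted p of 0.0243 for Gadd45b, 0.299 for Gadd45a (0.29 ± 0.12) and 0.439 for Map3k4 (0.23 ± 0.12). It called 5.45% of all genes tested, most of them upward (560 of 649). Gadd45b and Gadd45g were higher with no overlap of the groups, which held for 7.5% of genes in FPKM and 5.23% in TPM. The call on Gadd45b was lost when only the groups compared were fitted (adjusted p = 0.135), or without replicate 1 or 3 of siR_Ctrl or replicate 1 or 2 of siR_Ctrl + IFN-γ (log2 fold change from 0.57 to 0.75, adjusted p from 0.0589 to 0.0801 by edgeR).

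In siR_Nostrill cells the same comparison gave no call for a member in the counts. Gadd45b was called at 0.38 ± 0.068 once a trend of the counts along transcript length was removed (edgeR adjusted p = 0.00146). That fit called 19.1% of all genes. By limma on log2(TPM + 1), which called 5.31% of all genes, Gadd45b was called at 0.33 ± 0.076 (adjusted p = 0.0276). In the counts, the log2 fold change with IFN-γ was 0.17 ± 0.16 for Gadd45b (edgeR adjusted p = 0.542), -0.27 ± 0.12 for Gadd45a (0.225) and 0.19 ± 0.12 for Map3k4 (0.352), where edgeR called 6.78% of genes. The interval for Gadd45b, 0.874 to 1.44-fold, does not exclude a rise. Gadd45a was lower in FPKM with no overlap of the groups, as were 18.6% of genes, while in TPM its groups overlapped. Its log2 fold change was -0.17 without replicate 1 of siR_Nostrill + IFN-γ and ran from -0.38 to -0.17 over all libraries left out in turn. That of Gadd45b ran from 0.085 to 0.27 and that of Map3k4 from 0.10 to 0.31. Set beside siR_Ctrl cells, the log2 fold change with IFN-γ in siR_Nostrill cells was lower by 0.56 ± 0.17 for Gadd45a and 0.55 ± 0.23 for Gadd45b. For Gadd45g it was lower by 0.61 ± 0.31 and for Map3k4 by 0.037 ± 0.17. It was positive in siR_Ctrl and negative in siR_Nostrill cells for Gadd45a (0.29 and -0.27) and Gadd45g (0.54 and -0.067). Without replicate 2 of siR_Ctrl + IFN-γ the difference for Gadd45g, siR_Nostrill minus siR_Ctrl, was -0.36. These differences contain the contrast used for the choice and were not tested.

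Without IFN-γ, which is the comparison of the siRNAs least tied to the choice, no member was called in the counts. By edgeR the log2 fold change of siR_Nostrill against siR_Ctrl was -0.10 ± 0.22 for Gadd45g (95% confidence interval -0.58 to 0.38, adjusted p = 0.795) and -0.030 ± 0.16 for Gadd45b (-0.39 to 0.33, 0.918). It was 0.12 ± 0.12 for Gadd45a (-0.15 to 0.39, 0.576) and -0.0019 ± 0.12 for Map3k4 (-0.26 to 0.26, 0.993). None of the 4 had an unadjusted p under 0.05 in edgeR, as 13.8% of all genes had, and 0 of 4 were called by DESeq2 (1.77% of all genes) or by limma on log2(FPKM + 1) (0.18%). With the length trend removed edgeR called 1 of 4, Gadd45g at -0.36 ± 0.092 (adjusted p = 0.0479). Over all genes edgeR called 0.218% in the counts and 3.43% with the trend removed.

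The spread between replicates of Gadd45b and Gadd45g went with transcript length. The 3 Gadd45 transcripts are short, at 845 nucleotides for Gadd45g, 988 for Gadd45a and 1030 for Gadd45b by the lengths that the deposited counts and FPKM imply, and only 7.64% to 11.03% of tested genes are shorter. Map3k4, at 5037 nucleotides, is longer than 84.8% of them, and the median is 2657. The log2 CPM of genes in a library, relative to the mean over libraries, followed a trend along length in most libraries (Spearman's rho with length from -0.67 to 0.75 across 11798 genes), with little of it in siR_Ctrl replicate 3 (0.020) and siR_Ctrl + IFN-γ replicate 1 (0.10). At the length of Gadd45g the trend ran from -0.48 in siR_Ctrl replicate 1 to 0.38 in siR_Ctrl + IFN-γ replicate 2. Gadd45g deviated from its group mean to the same side as that trend, also taken from the group mean, in 11 of 12 libraries. So did Map3k4, whose trend has the opposite sign. For Gadd45a and Gadd45b it was 10 of 12. The same count over all genes, to which the trend was fitted, was not made. Deviations within a group are tied to one another through its mean, so the 12 libraries are not independent cases. The fold changes of the comparisons ran with length too, with a Spearman's rho across the same genes of -0.43 for IFN-γ in siR_Ctrl cells, 0.48 for IFN-γ in siR_Nostrill cells, -0.66 for siR_Nostrill without IFN-γ and 0.27 with it, and 0.65 for the difference of the siRNA effects.

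**Figure D3:**
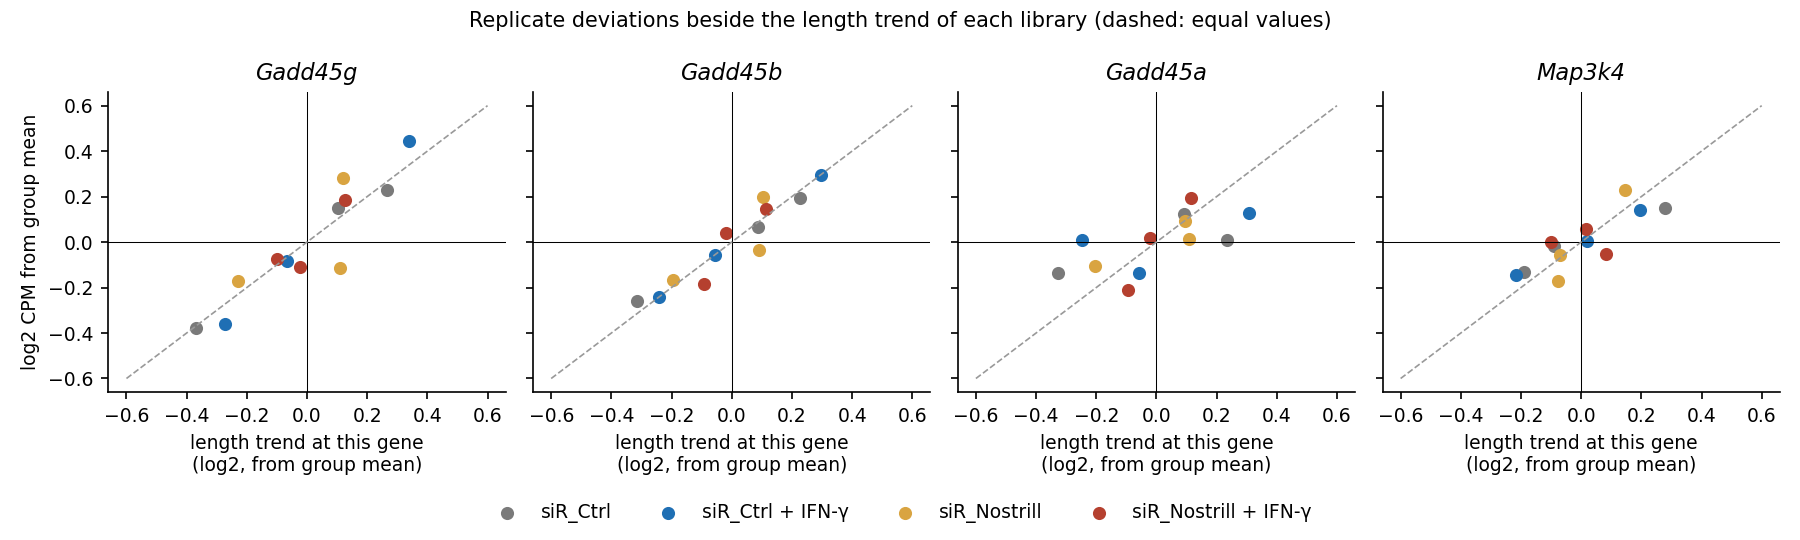
For each member, the deviation of a library's log2 CPM from its group mean against the length trend of that library at the gene's length, also from the group mean. Points are the 12 libraries coloured by group and the dashed line marks equal values, and the points of Gadd45b and Gadd45g lie near it while those of Gadd45a scatter more.

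Removing the trend lowered the pooled SD within groups from 0.30 to 0.12 on the log2 CPM scale for Gadd45g, from 0.22 to 0.074 for Gadd45b and from 0.15 to 0.099 for Map3k4. For Gadd45a it went from 0.15 to 0.17. TPM, whose total is nearly equal between libraries, is FPKM times 1 factor per library (from 1.26 to 1.75), shared by all genes. It rescales a library as a whole and is no correction for length. Gadd45b was also less spread in TPM, at 78.3, 76.0 and 77.8 TPM in siR_Ctrl cells and at 114, 115 and 112 TPM in siR_Ctrl + IFN-γ. Its coefficient of variation in those groups was 1.57% and 0.996% in TPM against 11.5% and 12.2% in FPKM. The gain was smaller in siR_Nostrill (6.59% against 10.4%) and siR_Nostrill + IFN-γ (6.51% against 9.48%). In siR_Nostrill cells Gadd45b was at 61.9, 70.4 and 67.9 TPM and in siR_Nostrill + IFN-γ at 77.7, 87.6 and 86.8 TPM. On this scale both IFN-γ groups were above their own controls with no overlap, as were 5.23% of genes in siR_Ctrl cells and 20.3% in siR_Nostrill cells. The siR_Nostrill libraries were below those of siR_Ctrl with no overlap, as were 6.79% of genes without IFN-γ and 5.45% with it.

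Gadd45g gave 47.6, 51.1 and 54.2 TPM in siR_Ctrl cells, 64.9, 73.2 and 59.9 in siR_Ctrl + IFN-γ, 36.6, 47.0 and 42.6 in siR_Nostrill cells and 45.2, 42.4 and 47.8 in siR_Nostrill + IFN-γ. The siR_Nostrill libraries were below those of siR_Ctrl without IFN-γ as well, with no overlap, which held for 6.79% of genes. Gadd45a ran from 21.6 to 34.9 TPM and Map3k4 from 18.6 to 33.4 TPM, and without IFN-γ the siRNA groups of both overlapped. Map3k4 was more spread in TPM than in FPKM, with a coefficient of variation of 27.4% against 13.7% in siR_Ctrl cells. For Gadd45a it was 12.6% in TPM against 8.13% in FPKM in siR_Ctrl and 14.8% against 6.15% in siR_Ctrl + IFN-γ. In siR_Nostrill it was 6.68% against 2.85%, and in siR_Nostrill + IFN-γ it was lower in TPM, at 8.26% against 11.8%.

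**Figure D4:**
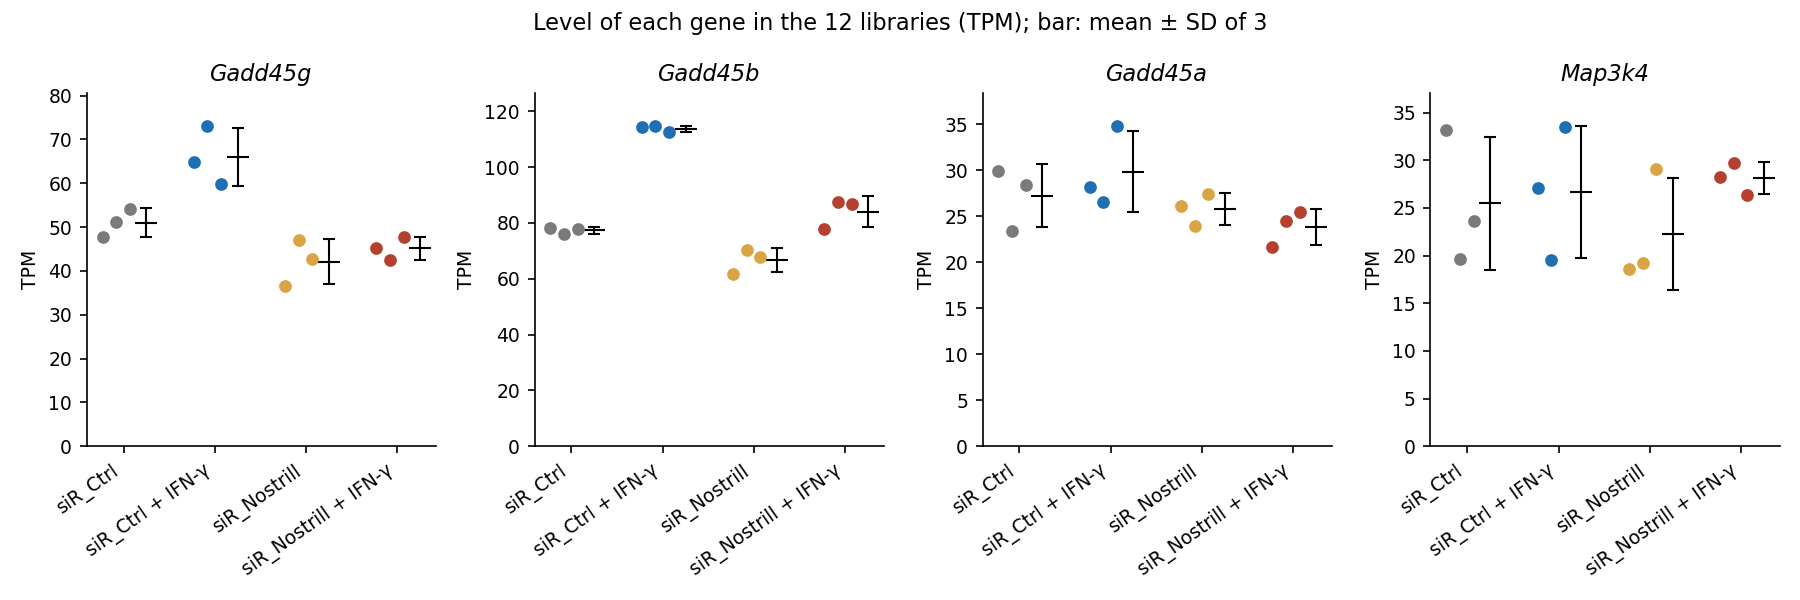
TPM of the 4 genes in each of the 12 libraries, with points for libraries and bars for the mean ± SD of 3. The 3 siR_Ctrl + IFN-γ libraries of Gadd45b lie at 112 to 115 TPM, and for Gadd45b and Gadd45g every siR_Nostrill library is below every siR_Ctrl library of the same treatment.

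With the trend removed, the IFN-γ rise of Gadd45b in siR_Ctrl cells was 0.59 ± 0.067 on the log2 scale (edgeR adjusted p = 2.11e-05), and 0.55 ± 0.076 by limma on log2(TPM + 1) (adjusted p = 0.000917). Map3k4 then also passed, at 0.33 ± 0.078 (edgeR adjusted p = 0.0134), though not by limma on TPM (0.063 ± 0.23, adjusted p = 0.885). The edgeR fit called 11.1% of all genes in this comparison. In siR_Nostrill cells, where Gadd45b was called in both of these fits, the edgeR fit called 19.1% of genes. Gadd45a was not called in either cell type in these fits, and in siR_Nostrill cells its value was -0.061 ± 0.12 without the trend and -0.11 ± 0.13 by limma on TPM. Map3k4 there was at 0.029 ± 0.078 and 0.35 ± 0.23, not called in either fit.

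Without IFN-γ and with the trend removed, Gadd45g was lower in siR_Nostrill than in siR_Ctrl cells by 0.36 ± 0.092, just past the threshold (edgeR adjusted p = 0.0479), and Gadd45b had a log2 fold change of -0.26 ± 0.068 that just missed it (0.0522). This fit called 3.43% of genes. By limma on TPM neither passed, with log2 fold changes of -0.28 ± 0.11 and -0.21 ± 0.076 and an adjusted p of 0.495 for both. With IFN-γ the log2 fold changes without the trend were -0.57 ± 0.091 for Gadd45g, -0.47 ± 0.067 for Gadd45b and -0.35 ± 0.12 for Gadd45a. The differences between the siRNA effect with and without IFN-γ, which were -0.61 for Gadd45g in the counts, became -0.21 ± 0.13 for Gadd45g, -0.21 ± 0.095 for Gadd45b and -0.22 ± 0.18 for Gadd45a, and that of Map3k4 went from -0.037 to -0.30 ± 0.11. They are given as values only.

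The summed level of the mesenchymal markers, most of it from Vim, was highest in siR_Ctrl + IFN-γ, and the other 3 groups overlapped. It was 2203 to 2419 FPKM in siR_Ctrl cells, 2547 to 2656 in siR_Ctrl + IFN-γ, 2110 to 2317 in siR_Nostrill cells and 2247 to 2388 in siR_Nostrill + IFN-γ, with none of the 7 markers at 0, and their part in the Gadd45 results was not tested. In bulk RNA a smaller number of cells of a type and less RNA per cell cannot be told apart. The summed epithelial markers were at most 3.08 FPKM and the endothelial markers at most 0.18 in any library. With IFN-γ the epithelial sum was lower under siR_Nostrill with no overlap, at 1.27 to 1.86 FPKM against 2.01 to 2.74. Without IFN-γ it was 1.76 to 2.69 under siR_Nostrill and 1.68 to 3.08 under siR_Ctrl. The leukocyte sum was 1.16 to 1.45 FPKM in siR_Ctrl and 1.29 to 1.96 in siR_Ctrl + IFN-γ. It was 0.93 to 2.05 in siR_Nostrill and 1.9 to 2.1 in siR_Nostrill + IFN-γ. The part of these sums in the Gadd45 results was not tested.

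Gadd45g relative to Gadd45b, a ratio of similarly short transcripts from the same library, was 0.608, 0.672 and 0.698 (FPKM) in siR_Ctrl cells and 0.568, 0.638 and 0.533 in siR_Ctrl + IFN-γ. It was 0.593, 0.667 and 0.628 in siR_Nostrill cells and 0.581, 0.485 and 0.550 in siR_Nostrill + IFN-γ. The ratio was thus lower on average with IFN-γ under both siRNAs, at 0.580 ± 0.054 (SD, n = 3) against 0.659 ± 0.046 and at 0.539 ± 0.049 against 0.629 ± 0.037, with overlap under siR_Ctrl. The siRNA groups overlapped at either treatment.

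Genes around the GADD45 proteins were taken as 6 lists, namely the p38 and JNK kinase relay, other MAP3Ks, cell cycle and repair partners, DNA demethylation partners, transcription factors known to act on Gadd45 genes and other stress-inducible genes. Of these 58 of 59 genes were in the tables and 56 were tested. In siR_Ctrl cells IFN-γ changed 6 of the 56 by edgeR, 4 upward and 2 downward, which is 10.7% against 5.45% of all genes. In siR_Nostrill cells it changed 5, 4 upward and 1 downward, or 8.93% against 6.78%. With the length trend removed these counts were 10 and 14, beside 11.1% and 19.1% of all genes, and by limma on TPM 3 and 2, beside 2.88% and 5.31%. By DESeq2 they were 6 and 10 of 58, beside 5.59% and 8.87%. For siR_Nostrill against siR_Ctrl, edgeR called 0 of 56 in the counts with or without IFN-γ. Without IFN-γ 8 of 56 had an unadjusted p under 0.05, as had 13.8% of all genes, and none was called with the trend removed (3.43% of all genes), by DESeq2 or by limma on log2(FPKM + 1) or log2(TPM + 1). With IFN-γ 9 of 56 had an unadjusted p under 0.05, as had 14.5% of all genes, 7 were called with the trend removed (13% of all genes), 3 of 58 by DESeq2 (3.97% of all genes) and 0 by limma on either scale.

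**Figure D5:**
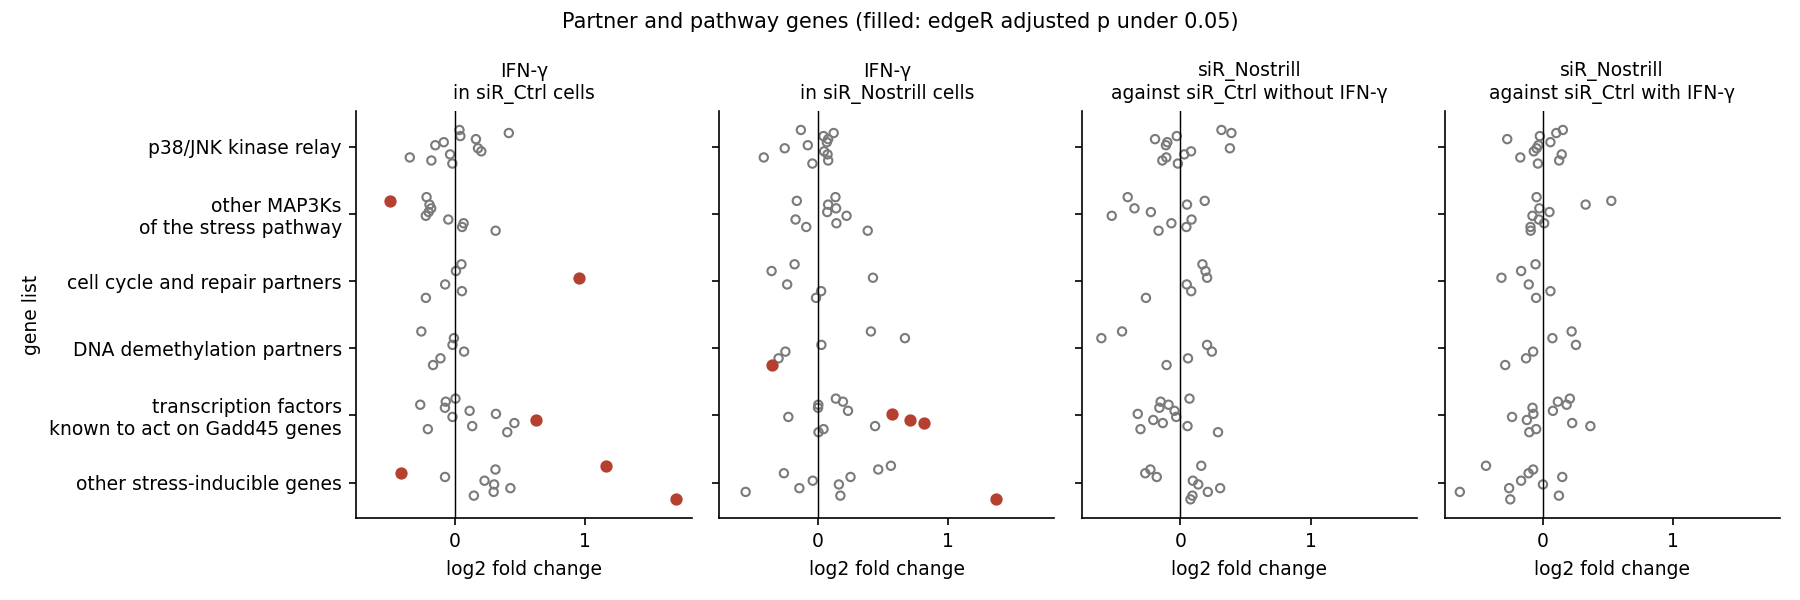
Log2 fold change of each tested gene of the 6 lists in the 4 comparisons, with filled points for an edgeR adjusted p under 0.05. Filled points stand only in the IFN-γ comparisons, 6 in siR_Ctrl cells and 5 in siR_Nostrill cells, led by Atf3 at 1.70 and 1.37.

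Downstream of Map3k4, 0 of 12 tested genes of the p38 and JNK kinase relay were called by edgeR on the counts in any comparison, beside 0.218% to 6.78% of all genes, and 1 to 3 had an unadjusted p under 0.05, beside 13.8% to 21.9% of all genes. Other fits called 1 gene in some comparisons. Map2k6, which encodes MKK6, had a log2 fold change of -0.42 ± 0.11 with IFN-γ in siR_Nostrill cells on the counts (edgeR adjusted p = 0.0537). It was called there by DESeq2 (8.87% of all genes), by limma on FPKM (7.96%) and with the length trend removed (19.1%). Mapk9, which encodes JNK2, was called lower in siR_Nostrill + IFN-γ than in siR_Ctrl + IFN-γ by DESeq2 (3.97% of all genes). With the trend removed (13% of all genes) it was called at a log2 fold change of -0.33. These genes are named after their values were seen. The most abundant genes of the relay were Map2k3, the MKK3 kinase, with a mean of 80.3 FPKM, and Mapkapk2, a kinase activated by p38, with 79.6 FPKM. The median log2 fold change of the list lay between -0.031 and 0.046 in the 4 comparisons. Among 10 other MAP3Ks, edgeR on the counts called 1, Map3k6, lower with IFN-γ in siR_Ctrl cells by 0.50 ± 0.13 (edgeR adjusted p = 0.0440), and the call was lost in 4 of 10 alternatives, the removal of the length trend among them, and in 11 of 12 fits that left out a library. With the trend removed, Map3k1 was called instead (0.46), beside 11.1% of all genes. Map3k12 was then called in siR_Nostrill cells with IFN-γ (-0.24), beside 19.1%. Map3k6 was called for siR_Nostrill against siR_Ctrl with IFN-γ, at 0.48 with the trend removed (13% of all genes) and 0.52 by DESeq2 (3.97%). These, too, are named after their values were seen.

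Of 6 cell cycle and repair partners, Cdkn1a, which encodes p21, rose with IFN-γ in siR_Ctrl cells by 0.95 ± 0.16 (edgeR adjusted p = 0.00269). In siR_Nostrill cells it was at 0.42 ± 0.16 (edgeR adjusted p = 0.141). It was called there with the length trend removed, but not by DESeq2 or by limma on FPKM or TPM. Of 6 tested DNA demethylation partners, Ercc5, the XPG repair nuclease, fell by 0.35 ± 0.077 in siR_Nostrill cells with IFN-γ (edgeR adjusted p = 0.0167), a call lost by limma on FPKM and on TPM and in 4 of 12 fits that left out a library. In siR_Ctrl cells Ercc5 was at -0.17 ± 0.077 (edgeR adjusted p = 0.338). Among 12 transcription factors known to act on Gadd45 genes, Foxo3 rose with IFN-γ by 0.62 ± 0.15 in siR_Ctrl cells (edgeR adjusted p = 0.0378) and by 0.71 ± 0.15 in siR_Nostrill cells (0.0167). Foxo1 rose by 0.82 ± 0.18 (0.0184) and Nfkb1, the NF-κB p50 precursor, by 0.57 ± 0.15 (0.0493) in siR_Nostrill cells. In siR_Ctrl cells Foxo1 was at 0.46 ± 0.18 (edgeR adjusted p = 0.245) and Nfkb1 at 0.31 ± 0.15 (0.385), and both were called there once the length trend was removed. The call on Foxo3 in siR_Ctrl cells was lost in 4 of 10 alternatives and in 9 of 12 fits that left out a library. Those on Foxo1 and Foxo3 in siR_Nostrill cells were each lost by limma on TPM and in 4 of 12 such fits, and that on Nfkb1 in 6 of 10 alternatives and 8 of 12 such fits.

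Of 10 other stress-inducible genes, Atf3, a stress transcription factor, rose with IFN-γ by 1.70 ± 0.14 in siR_Ctrl cells (edgeR adjusted p = 7.03e-06) and by 1.37 ± 0.14 in siR_Nostrill cells (5.03e-05). Trib3, a pseudokinase of the same stress response, rose by 1.16 ± 0.18 (0.00158) in siR_Ctrl cells. In siR_Nostrill cells Trib3 was at 0.56 ± 0.18 (edgeR adjusted p = 0.0890) and was called by DESeq2, by limma on FPKM and on TPM and with the length trend removed. Sesn1, a p53-responsive sestrin, fell by 0.42 ± 0.0997 in siR_Ctrl cells (edgeR adjusted p = 0.0306). The median log2 fold change of that list with IFN-γ was 0.30 in siR_Ctrl and 0.17 in siR_Nostrill cells, against -0.0085 and -0.00056 over all genes. The call on Sesn1 was lost in 2 of 10 alternatives and in 7 of 12 fits that left out a library. The calls on Atf3 under both siRNAs and on Cdkn1a and Trib3 in siR_Ctrl cells held in all 10 alternatives and in all 12 fits that left out a library.

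Across the 12 libraries the pattern most like that of Gadd45g in log2 CPM was that of Snx15, Gnas, Farsa, Jund and Aifm2 (Pearson r from 0.94 to 0.95, of 9865 genes), and Gadd45b stood at rank 13 (r = 0.92). For Gadd45b the first 5 were Vim, Dbnl, Wnt4, Rars and Spire2 (0.95 to 0.97). For Gadd45a they were Pink1, Ndrg2, Lonp1, Gch1 and Nucb2 (0.92 to 0.96), with Gadd45g at 0.72 and Gadd45b at 0.66. For Map3k4 they were Ktn1, Col6a3, Agrn, Osbpl1a and Arhgap28 (0.92 to 0.96), and its r with the Gadd45 genes ran from -0.12 to 0.20. These values take in the IFN-γ libraries used for the choice and carry no test. They also include the length trend of each library. With that trend removed, 1 of the 5 (Vim) remained for Gadd45b and 0 of 5 for each other member, while the r of Gadd45b with Gadd45g was 0.90.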

How the data were processed

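IEC4.1 libraries of 4 groups were sequenced on a DNBSEQ platform after oligo(dT) enrichment. The labels' processing notes name HISAT2 and GRCm38.p6 (mm10), and no source used here names the read counter. For each gene and library the table deposited by the authors has an estimated count (of reads, not normalized), of which 90.6% to 91.6% were whole. An FPKM value, scaled by the authors for length and mapped reads, and a TPM value, with a nearly constant total, were deposited beside it.

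Counts were rounded and tested with edgeR 4.0.16 in R 4.3.3 (quasi-likelihood test, TMM, filterByExpr, all 12 libraries in 1 fit, two-sided, Benjamini-Hochberg adjustment over 11900 genes, threshold 0.05), and the script was tested on simulated data. Alternatives were DESeq2 1.42.0 and its size factors, a fit of no more than the groups compared, no filter on counts or 5 CPM on average, a replicate block, limma 3.58.1 on log2(FPKM + 1) or log2(FPKM + 0.1) with a mean FPKM of at least 0.5, removal of the length trend (lowess, span 0.3, as an offset), each library left out, and, added after seeing the data, limma on log2(TPM + 1). Gene lengths came from the ratio of count to FPKM. The members, gene lists and tests were chosen with earlier results of these data known. Genes named were the members, up to 3 called genes per list and comparison (for a list with none, the 2 of highest mean FPKM), the 5 genes most like each member and cell type markers. For the kinase relay and the other MAP3Ks, genes called in other fits only were also named, a choice made after their values were seen. Genes of the remaining lists called in other fits only, Rela among them, were not all named. Genes without a row in the tables (Mapk10, Irf8, Epcam, Cdh1, Cldn3, Cldn4, Cldn7, Cd3e, Adgre1, Itgam, Kdr and Tek) were not analysed here. A leukocyte marker of the list is not reported here. Replicates differed by more than sampling noise (chi-square divided by its degrees of freedom, 6.46 to 96.5), and each library was counted as 1 replicate. Nothing in the labels says that replicates came from separate cultures, and p-values then measure only the spread between these libraries. Intervals for members are 95% confidence intervals of the edgeR fit. Promoters are from RefSeq (4 of 4 members matched).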

Additional observations from a re-analysis of the deposited data

Results flagged for a closer look

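Gadd45a lay on opposite sides of its controls with IFN-γ under the 2 siRNAs, although neither change was called (edgeR adjusted p = 0.299 in siR_Ctrl and 0.225 in siR_Nostrill cells). In siR_Ctrl cells all 3 libraries with IFN-γ were above the mean without it (20.9 ± 1.29 against 18.0 ± 1.46 FPKM, SD, n = 3), and in siR_Nostrill cells all 3 were below it (15.98 ± 1.88 against 19.0 ± 0.543). The siR_Ctrl groups overlapped, with a lowest value of 19.58 FPKM with IFN-γ and a highest of 19.67 without it. The share of all genes on opposite sides in this way was not counted. Fold changes with IFN-γ ran with length in opposite directions over all genes (Spearman's rho -0.43 in siR_Ctrl and 0.48 in siR_Nostrill cells), and Gadd45a is short. The difference of the IFN-γ effects, siR_Nostrill minus siR_Ctrl, was -0.56 ± 0.17 (SE) on the log2 scale and was not tested, since it contains the contrast used to choose the genes. It was -0.22 ± 0.18 with the length trend removed, where the IFN-γ change was 0.16 ± 0.12 in siR_Ctrl and -0.061 ± 0.12 in siR_Nostrill cells. In TPM the siR_Ctrl libraries with IFN-γ did not all lie on one side of the mean without it, and the siR_Nostrill groups with and without IFN-γ overlapped.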

How the results depend on the processing

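Over the 20 member values and 10 alternatives without leaving out a library, the direction and side of the threshold, or the value within 1 replicate SD, held in 175 of 196 cases. The Gadd45b rise with IFN-γ in siR_Ctrl cells was 0.72 with only the groups compared and fell below the threshold, and leaving out a library gave 0.57 to 0.83. With the length trend removed, Map3k4 passed in siR_Ctrl cells (0.33) and Gadd45b in siR_Nostrill cells (0.38, and 0.33 by limma on TPM), and Gadd45g there moved to 0.17. Without IFN-γ, siR_Nostrill against siR_Ctrl reversed for Gadd45a (-0.13 with the trend removed, -0.069 by limma on TPM) and passed for Gadd45g (-0.36). Map3k4, near 0, reversed to 0.0055 with no filter, 0.0082 at a mean of at least 5 CPM, 0.0016 with only the groups compared and 0.20 with the trend removed. Leaving out a library gave 0.051 to 0.18 for Gadd45a and -0.15 to 0.076 for Gadd45b. It gave -0.27 to 0.019 for Gadd45g and -0.12 to 0.088 for Map3k4. With IFN-γ, Map3k4 was 0.10 by limma on TPM. The difference of the siRNA effects with and without IFN-γ moved to -0.22, -0.21, -0.21 and -0.30 for Gadd45a, Gadd45b, Gadd45g and Map3k4 with the trend removed, and to -0.24, -0.22, -0.26 and 0.29 by limma on TPM. The cause of these shifts was not tested.

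Genes called numbered 649, 807, 26 and 51 for IFN-γ in siR_Ctrl cells, IFN-γ in siR_Nostrill cells, and siR_Nostrill without and with IFN-γ. With only the groups compared they numbered 341, 1997, 0 and 0, with the trend removed 1324, 2269, 408 and 1542, and by DESeq2 838, 1330, 265 and 596. Limma on TPM called 329 in the first and 8 in the third. For siR_Nostrill with IFN-γ, no filter gave 30, a mean of at least 5 CPM 105 and limma on FPKM 135 (114 with a pseudocount of 0.1). Leaving out a library gave 489 to 589, 491 to 1138, 0 to 37 and 0 to 72.

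Same-numbered libraries had deviations correlated from -0.49 to 0.73 and correlated best with their own number in 7 of 18 cases. These deviations include the length trend of each library, so they cannot decide whether replicate numbers pair the libraries. A replicate block changed no call on a member and left 32 in place of 51 genes called for siR_Nostrill with IFN-γ. For Gadd45b with IFN-γ in siR_Ctrl cells it gave an SE of 0.13 in place of 0.16 and an edgeR adjusted p of 0.00926 in place of 0.0243. Depth was nearly equal between libraries, and the lowest count of a member was 251.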
